A study of Arabidopsis thaliana with 27 samples.

Results

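The plant cuticle set described here has 10 genes, KCS1 (AT1G01120), KCS2 (AT1G04220), KCS6 (AT1G68530), KCS10 (AT2G26250, also FIDDLEHEAD), KCS12 (AT2G28630), BDG1 (AT1G64670), BDG2 (AT5G41900), BDG3 (AT4G24140), LACS2 (AT1G49430) and CER1 (AT1G02205). They are 10 of the 32832 loci in the deposited table of raw counts, and were picked by locus for their place in cuticle synthesis with UV-B responses of these libraries already known. The filter on low counts left 9 of them among the 19794 genes tested. BDG3 did not pass it.

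RNA was sequenced from excised hypocotyls of Arabidopsis thaliana seedlings grown in darkness, in 27 libraries that form 9 groups of 3. Each of 3 genotypes (xpf-3, uvr8-6 and wild-type Columbia-0, WT) was kept dark or given 3000 µmol m-2 (low dose, about 5 min) or 30000 µmol m-2 (high dose, about 45 min) of UV-B. All groups, dark controls included, germinated for 2.5 days in darkness on 0.5x MS medium with 100 µM of the gibberellin GA4, so every value comes from gibberellin-fed tissue. Hypocotyls were taken 6 h after exposure per the extraction protocol, whereas the series title gives a harvest after 2 days. The xpf-3 line carries a mutation in XPF (UVH1), an endonuclease subunit of nucleotide excision repair, and uvr8-6 is a mutant of the UV-B photoreceptor UVR8. The labels give neither the molecular lesion of an allele nor the number of seedlings behind a library, and do not say that the 3 libraries of a group came from separate cultures. P-values therefore measure the spread between libraries only.

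The cuticle is a layer of cutin, a polyester of oxidised fatty acids, and of waxes derived from very-long-chain fatty acids, laid down by epidermal cells on the aerial surface. KCS enzymes (3-ketoacyl-CoA synthases) catalyse the condensing step that extends an acyl-CoA chain and set the chain lengths made. BDG proteins are alpha/beta-hydrolase-fold proteins of the epidermal wall needed for normal cutin, LACS2 activates fatty acids to acyl-CoA for cutin, and CER1 makes alkanes, the main wax class of stems and leaves. A growing etiolated hypocotyl has to extend this layer along with its surface.

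The upstream sequence of 3 of the genes is shown because BDG1 and BDG2 are close relatives with unlike responses below, and because KCS10 is the only one of the 10 whose window holds an L1 box, the element that epidermal homeodomain factors such as ATML1 and PDF2 are known to bind. The sequences are the 300 bases before the annotated gene start, read 5′ to 3′ on the gene's strand from RefSeq TAIR10.1 by locus, because the count table names no build. The windows are chr2:11173279-11173578 (minus strand) for KCS10, chr1:24033675-24033974 (minus strand) for BDG1 and chr5:16768635-16768934 (plus strand) for BDG2. Capitals mark the L1 box, which lies 54 to 47 bases before the KCS10 start.
KCS10: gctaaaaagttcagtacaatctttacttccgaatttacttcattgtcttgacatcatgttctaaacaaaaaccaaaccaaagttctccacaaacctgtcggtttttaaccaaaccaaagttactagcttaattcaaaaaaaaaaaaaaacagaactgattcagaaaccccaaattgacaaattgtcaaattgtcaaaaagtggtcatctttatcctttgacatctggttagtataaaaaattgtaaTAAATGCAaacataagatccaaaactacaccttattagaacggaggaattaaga
BDG1: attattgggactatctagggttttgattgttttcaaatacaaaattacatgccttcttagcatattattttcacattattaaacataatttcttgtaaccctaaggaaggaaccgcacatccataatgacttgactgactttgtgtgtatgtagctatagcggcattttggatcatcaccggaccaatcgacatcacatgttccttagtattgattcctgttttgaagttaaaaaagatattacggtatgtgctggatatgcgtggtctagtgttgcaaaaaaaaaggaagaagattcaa
BDG2: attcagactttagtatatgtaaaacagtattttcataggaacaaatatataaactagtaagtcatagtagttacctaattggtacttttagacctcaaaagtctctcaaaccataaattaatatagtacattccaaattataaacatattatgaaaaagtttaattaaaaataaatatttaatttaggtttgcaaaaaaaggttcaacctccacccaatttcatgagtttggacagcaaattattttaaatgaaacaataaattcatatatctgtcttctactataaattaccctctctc
Both strands of each window were searched for the L1 box (TAAATGCA or TAAATGTA), the GCC box (GCCGCC) and the G box (CACGTG). The L1 box was present in 1 of the 10 windows and in 5.49% of the windows of 27555 protein-coding genes. The GCC box and the G box were in none of the 10 windows, and in 2.27% and 7.06% of all windows. These matches describe letters in a window and say nothing of which factor acts there.

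Library totals were 4508097 to 11045334 counts in xpf-3, 12488317 to 15342281 counts in uvr8-6 and 6163441 to 11984665 counts in WT. The authors' note describes WT and xpf-3 as an earlier sequencing experiment and uvr8-6 as a newer one, so any difference between uvr8-6 and WT and a difference between the experiments cannot be told apart. UVR8 averaged 3.50 CPM (counts scaled to a common library size by TMM) in uvr8-6 in the dark, against 70.6 CPM in WT. UVH1 averaged 46.5 CPM in xpf-3 in the dark, against 19.3 CPM in WT, so its level does not show a loss of transcript. Markers of epidermis were well expressed. Their 8 levels summed to 2659 to 3315 CPM in xpf-3, 2429 to 2529 CPM in uvr8-6 and 2387 to 2493 CPM in WT in the dark. The 3 markers of the shoot tip and the 3 of the root tip summed to at most 11.7 CPM in any library. The shoot marker WUS had 0 counts in all xpf-3 libraries. The groups were not alike in these sums. In the dark the shoot-tip sums were 0.855 to 1.71 CPM in xpf-3, 5.92 to 11.2 in uvr8-6 and 1.59 to 3.60 in WT. At the high dose they were 4.97 to 7.87, 9.47 to 11.7 and 5.33 to 7.08 CPM in that order. Root-tip sums in the dark were 0.107 to 3.07, 2.90 to 5.46 and 0.335 to 2.78 CPM. The part of tip tissue in the values below was not tested.

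Per kilobase of exon, the 10 genes spanned a wide range of levels in dark-grown WT hypocotyls. KCS6 had 498 ± 76.6 CPM per kb, KCS10 had 463 ± 37.8 and KCS1 had 444 ± 80.5 (SD, n = 3 here and below). These 3 condensing enzymes did not differ beyond the spread between libraries. CER1 followed at 150 ± 6.17 and BDG1 at 87.6 ± 10.2 CPM per kb. KCS2 had 43.7 ± 5.25, while BDG2 at 29.5 ± 6.06 and LACS2 at 27.3 ± 3.64 CPM per kb did not differ beyond their spread. KCS12 had 10.4 ± 2.62 CPM per kb. BDG3, a relative of BDG1 and BDG2, was at the limit of detection with 1 count over the 3 libraries.

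**Figure D1:**
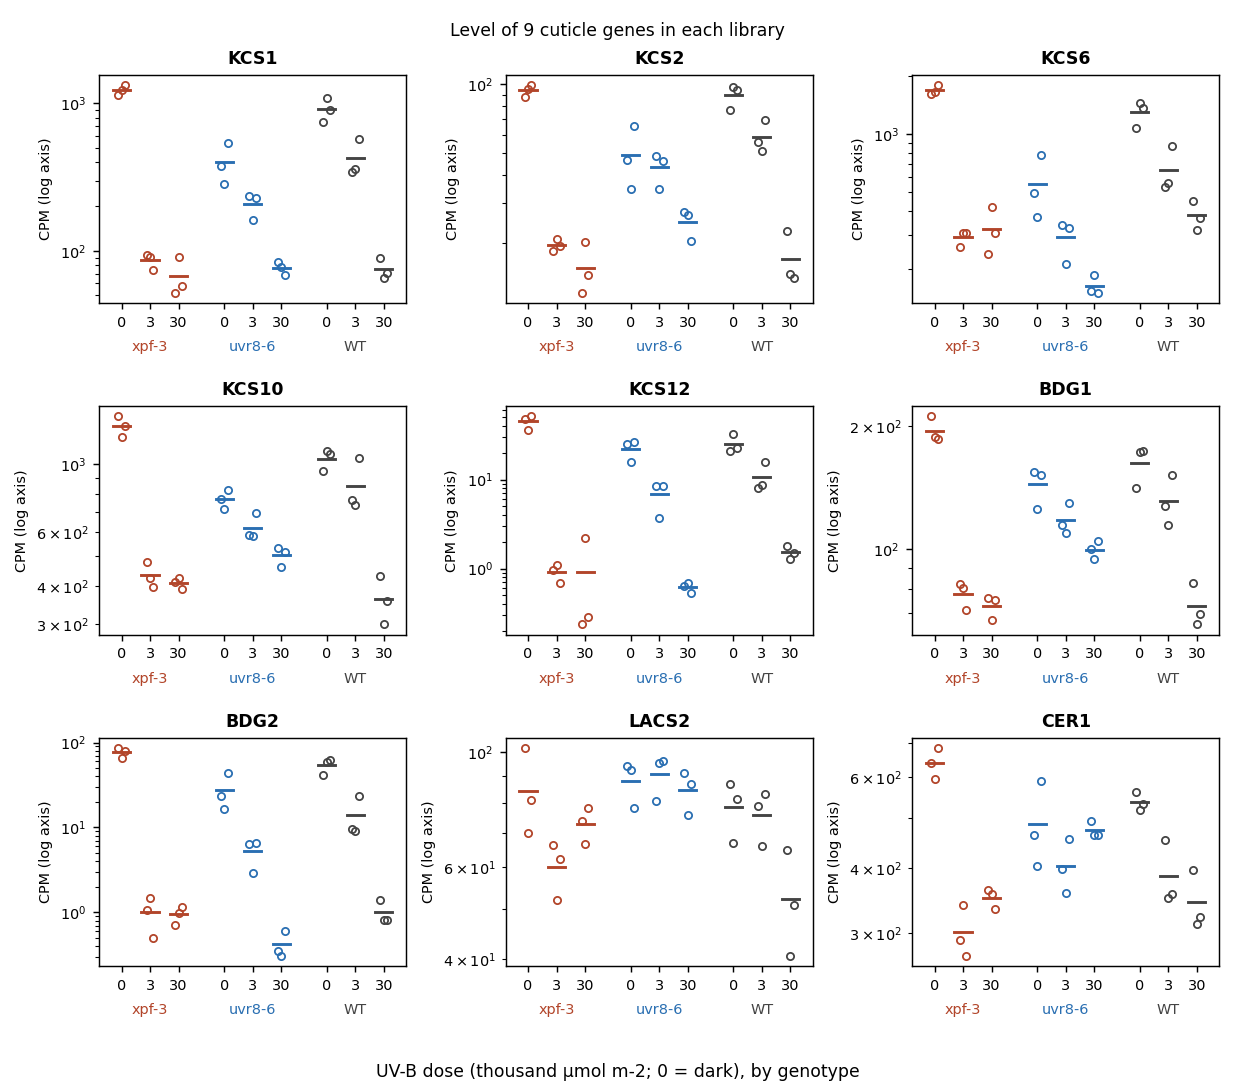
CPM of 9 genes in each of the 27 libraries on a log axis, by UV-B dose (0, 3000 and 30000 µmol m-2, axis marks 0, 3 and 30) within xpf-3, uvr8-6 and WT; circles are libraries and bars are means of 3. BDG2 spans 86.4 CPM in xpf-3 in the dark to 0.308 CPM in uvr8-6 at the high dose.

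KCS1, an elongase condensing enzyme for wax precursors, was lower after UV-B in every genotype. In xpf-3 it had 1135, 1243 and 1336 CPM in the dark, 94.4, 91.5 and 74.1 CPM at the low dose and 51.8, 91.3 and 57.9 CPM at the high dose. In uvr8-6 it had 374, 283 and 540 CPM in the dark, 236, 161 and 229 CPM at the low dose and 83.9, 77.4 and 68.1 CPM at the high dose. In WT it had 752, 1082 and 897 CPM in the dark, 343, 362 and 574 CPM at the low dose and 89.1, 65.8 and 70.7 CPM at the high dose. No irradiated library reached the range of its own dark controls, and the range of xpf-3 at the low dose overlapped that of WT at the high dose. Its log2 fold changes against dark in xpf-3 were -3.84 ± 0.26 after the low and -4.20 ± 0.27 after the high dose (± SE here and below). They were -0.93 ± 0.23 and -2.38 ± 0.24 in uvr8-6, and -1.09 ± 0.23 and -3.60 ± 0.26 in WT. Since hypocotyls were sequenced whole, fewer cells expressing a gene and less RNA of it per cell cannot be told apart here or in any result below.

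Markers of the epidermis, the layer that makes the cuticle, were also lower, by less. Of the 8 markers, 7 fell at both doses in xpf-3 and at the high dose in WT by edgeR's quasi-likelihood test with Benjamini-Hochberg adjustment, while LTP1 rose there. In these comparisons 33.9%, 35.5% and 31.5% of all genes tested were called lower, and 33.4%, 37.8% and 33% higher. Summed without LTP1 the markers were at 1627 to 1697 CPM in xpf-3 at the low dose, against 2653 to 3304 CPM in the dark. They were at 1200 to 1484 CPM in WT at the high dose, against 2378 to 2437 CPM in WT in the dark. In uvr8-6 at the high dose they were at 1669 to 1934 CPM, against 2305 to 2457 CPM in the dark. The median log2 fold change of the 8 markers was -0.82 in xpf-3 at the low dose, and WT at the high dose had -0.96. Over the 9 cuticle genes tested the median was -2.27 and -1.77 in the same comparisons, and over all genes tested it was -0.01 and 0.03.

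Markers of 2 inner tissues fell as well. Of 6 tested endodermis markers, 6 fell in xpf-3 at the low dose (median -3.54), and 6 in WT after the high dose (median -4.55), and these medians were further from 0 than those of the cuticle genes. The 7 listed summed to 60.8 to 108 CPM in xpf-3 at the low dose, against 994 to 1229 CPM in xpf-3 in the dark, and to 42.3 to 61.8 CPM in WT at the high dose, against 831 to 1169 CPM in WT in the dark. Of 5 xylem markers, 4 fell in each of the same comparisons (medians -1.60 and -0.94), with sums of 38.2 to 43.3 CPM in xpf-3 at the low dose, against 102 to 137 CPM in the dark. In uvr8-6 at the high dose the endodermis sums were 11.6 to 33.2 CPM, against 263 to 647 CPM in the dark. The xylem sums there were 23.4 to 39.0 CPM, against 43.6 to 77.3 CPM in the dark. Stomatal markers moved the other way in xpf-3, where 3 of 4 rose at the low dose (median 2.39) and summed to 4.64 to 6.47 CPM, against 0.709 to 2.14 CPM in the dark. That median rests on few reads. In the xpf-3 dark libraries SPCH had 2, 1 and 0 counts, MUTE 3, 0 and 0 and FAMA 1, 0 and 0. At the high dose stomatal sums were 15.9 to 23.2 CPM in uvr8-6, against 6.76 to 12.15 CPM in the dark. In WT they overlapped, at 2.10 to 6.82 CPM against 2.02 to 9.03 CPM in the dark. Over all genes tested 33.9% were called lower and 33.4% higher in xpf-3 at the low dose. In WT at the high dose 31.5% were called lower. The part of any of these tissue markers in the values of the 10 genes was not tested.

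KCS2 (DAISY), a condensing enzyme known from suberin and cutin chains, had a smaller range. In xpf-3 it had 87.8, 95.4 and 99.3 CPM in the dark, 18.5, 20.9 and 19.4 CPM at the low dose and 12.1, 20.2 and 14.5 CPM at the high dose. In uvr8-6 it had 46.3, 34.5 and 65.6 CPM in the dark, 48.5, 34.6 and 46.1 CPM at the low dose and 27.3, 26.6 and 20.4 CPM at the high dose. In WT it had 77.0, 96.9 and 93.9 CPM in the dark, 55.6, 50.8 and 69.5 CPM at the low dose and 22.7, 14.5 and 14.0 CPM at the high dose. The low dose left uvr8-6 inside its dark range, whereas in xpf-3 and WT the low-dose libraries lay below theirs. Log2 fold changes at the low and the high dose were -2.27 ± 0.22 and -2.57 ± 0.23 in xpf-3, -0.18 ± 0.20 and -0.98 ± 0.21 in uvr8-6, and -0.60 ± 0.20 and -2.38 ± 0.22 in WT. Its coding sequence is 84.3% identical to that of KCS20 over 1554 aligned bases, so reads shared by the pair could have been counted for either. The same limit holds for KCS6 and KCS5 (81.3% over 1479 bases), KCS12 and KCS3 (80.3% over 1424) and BDG1 and BDG2 (79.6% over 1370).

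KCS6 (CER6), the main wax condensing enzyme of the shoot, was the most abundant of the set in CPM in WT and xpf-3 in the dark. It ranged over 1611 to 1800 CPM in the dark, 262 to 308 CPM at the low dose and 239 to 420 CPM at the high dose in xpf-3. In uvr8-6 the ranges were 374 to 779, 213 to 339 and 151 to 187 CPM in the same order. In WT they were 1075 to 1457, 532 to 870 and 321 to 454 CPM. Every irradiated group lay below its dark group, and uvr8-6 at the high dose held the lowest values of all 9 groups. Log2 fold changes at the low and the high dose were -2.53 ± 0.25 and -2.39 ± 0.25 in xpf-3, -0.91 ± 0.24 and -1.75 ± 0.25 in uvr8-6, and -0.99 ± 0.24 and -1.77 ± 0.25 in WT.

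KCS10, the condensing enzyme whose loss lets epidermal organs fuse, changed by less than KCS1. In xpf-3 it had 1432, 1229 and 1333 CPM in the dark, 478, 426 and 397 CPM at the low dose and 413, 425 and 392 CPM at the high dose. In uvr8-6 it had 770, 714 and 822 CPM in the dark, 586, 582 and 690 CPM at the low dose and 534, 462 and 516 CPM at the high dose. In WT it had 947, 1107 and 1076 CPM in the dark, 761, 737 and 1046 CPM at the low dose and 429, 299 and 357 CPM at the high dose. The third WT library at the low dose reached into the WT dark range, and the other irradiated libraries stayed below their dark controls. Log2 fold changes at the low and the high dose were -1.62 ± 0.14 and -1.70 ± 0.14 in xpf-3, -0.31 ± 0.13 and -0.61 ± 0.13 in uvr8-6, and -0.30 ± 0.13 and -1.53 ± 0.14 in WT.

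KCS12, a condensing enzyme whose substrate is less well defined, was reduced to a few counts per library at the high dose. In xpf-3 it had 48.0, 36.4 and 51.3 CPM in the dark, 0.954, 1.10 and 0.691 CPM at the low dose and 0.237, 2.22 and 0.287 CPM at the high dose. In uvr8-6 it had 24.9, 15.6 and 26.4 CPM in the dark, 8.53, 3.70 and 8.41 CPM at the low dose and 0.636, 0.693 and 0.539 CPM at the high dose. WT had 21.1, 32.8 and 22.4 CPM in the dark, 8.03, 8.64 and 15.8 CPM at the low dose and 1.80, 1.29 and 1.50 CPM at the high dose. Mean levels at the low and the high dose were 2.02% and 2.02% of the dark mean in xpf-3, 30.8% and 2.79% in uvr8-6, and 42.6% and 6.03% in WT. The 3 libraries of a high-dose group held only 21 counts in xpf-3, 27 in uvr8-6 and 35 in WT. The second xpf-3 library at the high dose stood apart, and the log2 fold change of -5.40 ± 0.45 against dark was -7.31 without it. The other log2 fold changes were -5.63 ± 0.44 in xpf-3 at the low dose, -1.70 ± 0.32 and -5.15 ± 0.43 in uvr8-6, and -1.21 ± 0.32 and -4.02 ± 0.42 in WT.

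**Figure D2:**
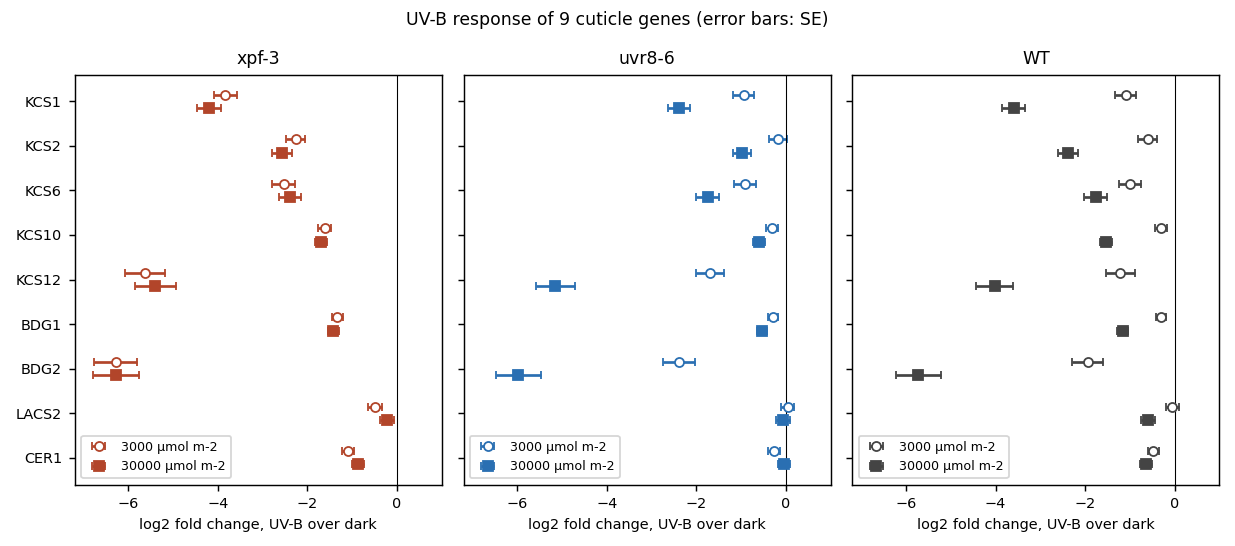
Log2 fold change of 9 genes, UV-B over dark, in xpf-3, uvr8-6 and WT at 3000 µmol m-2 (open circles) and 30000 µmol m-2 (filled squares); bars are the SE. In xpf-3 the 2 doses coincide for most genes, while in WT KCS1 lies at -1.09 for the low and -3.60 for the high dose.

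BDG2 was the most strongly lowered of the 9 genes in each of the 6 irradiated groups, with all libraries kept. In xpf-3 at the high dose KCS12 was lower than BDG2 once the second high-dose library was left out (log2 fold change -7.31). In xpf-3 it had 86.4, 66.3 and 78.9 CPM in the dark, 1.06, 1.46 and 0.493 CPM at the low dose and 0.710, 0.984 and 1.15 CPM at the high dose. In uvr8-6 it had 23.7, 16.3 and 43.3 CPM in the dark, 6.38, 2.91 and 6.58 CPM at the low dose and 0.353, 0.308 and 0.599 CPM at the high dose. WT had 41.6, 59.4 and 62.3 CPM in the dark, 9.61, 9.08 and 23.3 CPM at the low dose and 1.42, 0.808 and 0.809 CPM at the high dose. Mean levels at the low and the high dose were 1.30% and 1.23% of the dark mean in xpf-3, 19.0% and 1.51% in uvr8-6, and 25.7% and 1.86% in WT. The log2 fold changes were -6.29 ± 0.48 and -6.28 ± 0.51 in xpf-3, -2.39 ± 0.36 and -5.97 ± 0.51 in uvr8-6, and -1.94 ± 0.34 and -5.73 ± 0.49 in WT. The third WT library at the low dose was the highest of its group, and the WT value there was -2.54 without it.

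BDG1 (BODYGUARD), whose mutants have a leaky cuticle, was far less reduced although its coding sequence is 79.6% identical to that of BDG2 over 1370 aligned bases. It ranged over 187 to 212 CPM in the dark, 70.9 to 82.2 CPM at the low dose and 67.3 to 76.0 CPM at the high dose in xpf-3. In uvr8-6 the ranges were 126 to 155, 110 to 130 and 94.7 to 105 CPM in the same order. In WT they were 141 to 174, 115 to 152 and 65.6 to 82.8 CPM. The low-dose and dark ranges overlapped in uvr8-6 and WT and were far apart in xpf-3. Log2 fold changes at the low and the high dose were -1.33 ± 0.12 and -1.43 ± 0.12 in xpf-3, -0.29 ± 0.12 and -0.53 ± 0.12 in uvr8-6, and -0.31 ± 0.12 and -1.16 ± 0.12 in WT.

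BDG3 was detected mainly in uvr8-6 at the low dose, with 0.470, 0.858 and 0.427 CPM or 27 counts over the 3 libraries. It had 4 counts in uvr8-6 at the high dose and 0 in uvr8-6 in the dark, and 0 counts in each of the 9 xpf-3 libraries. WT had 1 count in the dark, 4 after the low and 0 after the high dose. It was not tested.

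LACS2, the acyl-CoA synthetase of cutin synthesis, had the log2 fold change nearest 0 of the 9 genes in 5 of the 6 irradiated groups, and CER1 had it in uvr8-6 at the high dose. It ranged over 70.0 to 102 CPM in the dark, 52.0 to 66.3 CPM at the low dose and 66.7 to 78.1 CPM at the high dose in xpf-3. In uvr8-6 the ranges were 78.0 to 94.0, 80.6 to 96.3 and 75.7 to 91.2 CPM in the same order. In WT they were 66.8 to 87.0, 66.0 to 83.0 and 40.6 to 64.9 CPM. Only the xpf-3 libraries at the low dose and the WT libraries at the high dose lay below their dark controls, with log2 fold changes of -0.48 ± 0.15 and -0.59 ± 0.16. The other 4 log2 fold changes lay between -0.21 and 0.04.

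CER1, of alkane synthesis, was lower in irradiated xpf-3 and WT. In xpf-3 it had 639, 596 and 684 CPM in the dark, 291, 341 and 271 CPM at the low dose and 363, 356 and 333 CPM at the high dose. In uvr8-6 it had 464, 404 and 590 CPM in the dark, 399, 359 and 455 CPM at the low dose and 494, 464 and 464 CPM at the high dose. WT had 561, 518 and 532 CPM in the dark, 453, 351 and 357 CPM at the low dose and 397, 313 and 322 CPM at the high dose. Irradiated libraries lay below all dark libraries in xpf-3 and WT, whereas in uvr8-6 the dark range overlapped both doses. Log2 fold changes at the low and the high dose were -1.09 ± 0.13 and -0.87 ± 0.13 in xpf-3, -0.27 ± 0.13 and -0.04 ± 0.13 in uvr8-6, and -0.47 ± 0.13 and -0.64 ± 0.13 in WT.

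By edgeR's adjusted p under 0.05, the number called lower at the low dose was 9 of the 9 tested in xpf-3, 4 in uvr8-6 and 6 in WT, and none was called higher. Over all genes tested, 33.9%, 2.88% and 12.7% were called lower in these comparisons. At the high dose 8 were called lower in xpf-3, 7 in uvr8-6 and 9 in WT, where 35.5%, 25.4% and 31.5% of all genes tested were. Nothing is read from these counts, since the genes were chosen with UV-B responses known. The count of 4 in uvr8-6 at the low dose was 2 without the third dark library or without the second low-dose library. The WT count of 6 at the low dose lay between 4 and 7 with 1 library left out.

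The step between the doses differed among genotypes as a description. In xpf-3 the high dose against the low dose gave log2 fold changes between -0.36 (KCS1) and 0.27 (LACS2), and none of the 9 was called (no unadjusted p under 0.05 by edgeR, 0 calls by DESeq2), where 19.5% of all genes tested were called. Without the second high-dose library of xpf-3 the KCS1 value was -0.73, the KCS2 value -0.62 and the KCS12 value -1.78. In uvr8-6, 5 were called lower, where 18.5% of all genes were, with the largest steps for BDG2 (-3.58 ± 0.57) and KCS12 (-3.46 ± 0.45). In WT, 8 were called lower, where 23.5% of all genes were, with the largest steps for BDG2 (-3.78 ± 0.53), KCS12 (-2.81 ± 0.44) and KCS1 (-2.50 ± 0.25). CER1 was the exception in WT at -0.17 ± 0.13.

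Whether the genes already differ between genotypes without UV-B was asked in the dark groups, a contrast apart from the UV-B responses. None of the 9 was called in xpf-3 against WT by edgeR's adjusted p, 3 had an unadjusted p under 0.05, and DESeq2 called 0. Over all genes tested 0.167% were called, and 3307 of the 19794 had an unadjusted p under 0.05 by edgeR. The 9 log2 fold changes lay between 0.08 (KCS2) and 0.84 ± 0.30 (KCS12, adjusted p = 0.185 by edgeR).

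In uvr8-6 against WT in the dark 5 of the 9 were called lower and none higher, where 17.2% of all genes tested were called lower. KCS6 was lower by a log2 fold change of -1.24 ± 0.24 (edgeR adjusted p = 0.000874), KCS1 by -1.19 ± 0.23 (0.000884) and KCS2 by -0.87 ± 0.20 (0.00308). The 3 uvr8-6 libraries lay below the 3 WT libraries for each of them. KCS10 (-0.44 ± 0.13, edgeR adjusted p = 0.0156) and BDG2 (-0.97 ± 0.32, 0.0273) also fell, although the BDG2 groups overlapped. The values of KCS12, BDG1, LACS2 and CER1 lay between -0.18 and 0.17 and were not called. The count of 5 was 3 without WT dark library 2, WT dark library 3 or uvr8-6 dark library 2, each of which ended the KCS10 and BDG2 calls. The BDG2 call was also lost without uvr8-6 dark library 1. The count was 2 when the 2 groups were fitted alone. Epidermis markers were mixed, with 4 of 8 lower and 1 (LTP1) higher, where 14.2% of all genes tested were called higher. Their sums overlapped, at 2429 to 2529 CPM in uvr8-6 and 2387 to 2493 CPM in WT. Without LTP1 the sums were 2305 to 2457 CPM in uvr8-6 and 2378 to 2437 CPM in WT. Of 6 endodermis markers 5 were lower, and the 7 listed summed to 263 to 647 CPM in uvr8-6, against 831 to 1169 CPM in WT. Of 5 xylem markers 4 were lower, with sums of 43.6 to 77.3 CPM in uvr8-6, against 102 to 125 CPM in WT. The part of these markers was not tested, and the genotype cannot be told apart from the later sequencing experiment.

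**Figure D3:**
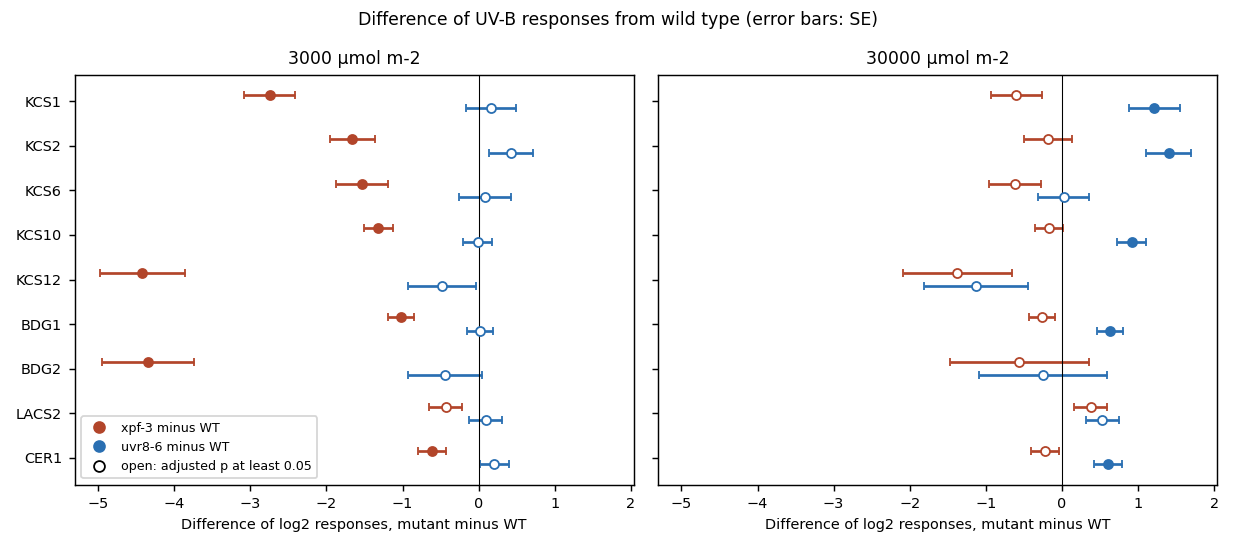
Difference of log2 UV-B responses from WT for 9 genes at 3000 µmol m-2 (left) and 30000 µmol m-2 (right), xpf-3 minus WT in red and uvr8-6 minus WT in blue; bars are the SE, and filled points have an edgeR adjusted p under 0.05. At the low dose KCS12 and BDG2 reach -4.42 and -4.35 in xpf-3, and at the high dose KCS2 reaches 1.40 in uvr8-6.

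The next comparison asks whether the response to the low dose differs between xpf-3 and WT, by the difference of responses (xpf-3 minus WT, an interaction term). At the low dose 8 of the 9 genes fell further in xpf-3 than in WT, where 17.8% of all genes tested had a lower difference. KCS12 had a difference of -4.42 ± 0.56 on the log2 scale (edgeR adjusted p = 1.38e-05) and BDG2 of -4.35 ± 0.61 (4.65e-05). Next came KCS1 at -2.74 ± 0.34 (edgeR adjusted p = 1.04e-05), KCS2 at -1.66 ± 0.29 (0.000376) and KCS6 at -1.54 ± 0.34 (0.00248). KCS10 differed by -1.32 ± 0.19 (edgeR adjusted p = 4.29e-05) and BDG1 by -1.02 ± 0.17 (0.000155). CER1 differed by -0.62 ± 0.19 (edgeR adjusted p = 0.0173), a call lost without WT low-dose library 1 (-0.39, adjusted p = 0.140), WT low-dose library 3 (-0.58, 0.0507) or xpf-3 dark library 3 (-0.53, 0.0633), and with the compared groups alone (-0.51, 0.0516). LACS2 had a difference of -0.44 ± 0.22 (edgeR adjusted p = 0.133). Epidermis markers differed the same way, with 4 of 8 lower and 1 higher and a median of -0.59. Among xylem markers 3 of 5 were lower (median -1.45), and among endodermis markers 1 of 6 (median -0.90). Of 4 stomatal markers, most with few counts in xpf-3 in the dark, 1 was higher (median 2.22), where 11.8% of all genes tested were. The part of these markers in the differences was not tested. The xpf-3 libraries behind these tests also gave falls that were known when the genes were chosen.

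At the high dose no difference between xpf-3 and WT was called among the 9 genes by edgeR, none had an unadjusted p under 0.05, and DESeq2 called 0. Over all genes tested 9.34% were called. Here too the genes had been chosen with UV-B responses known. The differences lay between -1.38 ± 0.72 (KCS12) and 0.37 ± 0.22 (LACS2). For KCS1 the 95% interval was -1.30 to 0.09, and for KCS10 -0.56 to 0.22. The KCS12 value rests on the xpf-3 high-dose library that stood apart: without it the difference was -3.32 (edgeR adjusted p = 0.0404).

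Whether the response differs between uvr8-6 and WT was asked in the same way, for genes chosen with UV-B responses known. At the low dose none of the 9 differences, uvr8-6 minus WT, was called by edgeR, none had an unadjusted p under 0.05, and DESeq2 called 0, where 0.788% of all genes tested were called. They lay between -0.49 ± 0.45 (KCS12) and 0.42 ± 0.29 (KCS2), and the 95% interval of KCS1 was -0.52 to 0.84. The 95% intervals were wider for KCS12 (-1.41 to 0.44) and BDG2 (-1.46 to 0.56).

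At the high dose 5 of the 9 genes were reduced less in uvr8-6 than in WT, where 4.48% of all genes tested had a higher difference. The UV-B responses of these libraries were known when the genes were chosen, so the test is not independent of that choice. KCS2 differed by 1.40 ± 0.30 (edgeR adjusted p = 0.00620) and KCS10 by 0.92 ± 0.19 (0.00461), and both calls held with each library left out in turn. KCS1 differed by 1.21 ± 0.33 (edgeR adjusted p = 0.0261), BDG1 by 0.63 ± 0.17 (0.0205) and CER1 by 0.61 ± 0.19 (0.0457). With 1 library left out the KCS1 call was lost in 6 cases, the BDG1 call in 5 and the CER1 call in 10, and all 3 were lost without the filter on low counts (edgeR adjusted p = 0.0642, 0.0693 and 0.161) and with the compared groups alone (0.0579, 0.0841 and 0.148). The CER1 call was also lost with DESeq2 size factors (edgeR adjusted p = 0.081). The KCS6 difference was 0.02 ± 0.34, with a 95% interval of -0.69 to 0.73. KCS12 (-1.13 ± 0.68, edgeR adjusted p = 0.334) and BDG2 (-0.25 ± 0.84, 0.896) gave values on the other side of 0. LACS2 had 0.53 ± 0.22 (edgeR adjusted p = 0.138).

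The count of 5 depended on single libraries. It was 2 without WT dark library 2, WT high-dose library 2, WT high-dose library 3 or uvr8-6 dark library 2, and 3 without WT dark library 3, uvr8-6 dark library 1 or uvr8-6 high-dose library 1. Of all genes called at this difference 54.6% were higher, against 42.8% with DESeq2 and 30.5% without the filter on low counts. Dark levels were lower in uvr8-6 than in WT for KCS1, KCS2 and KCS10, and high-dose levels of KCS1 differed by less than their spread, at 76.4 ± 7.93 CPM in uvr8-6 and 75.2 ± 12.3 CPM in WT. KCS10 had 504 ± 37.6 CPM in uvr8-6 and 362 ± 65.0 CPM in WT at the high dose, with no overlap. Epidermis markers differed the same way, with 3 of 8 higher and none lower, where 4.48% and 3.73% of all genes tested were. Median differences were 0.51 for endodermis, 0.17 for xylem and 1.02 for stomatal markers, and the part of these markers was not tested.

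**Figure D4:**
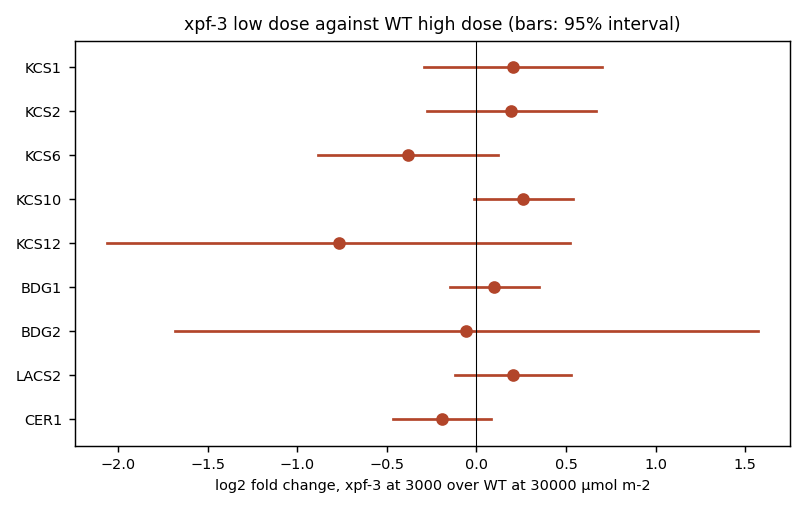
Log2 fold change of 9 genes, xpf-3 at 3000 over WT at 30000 µmol m-2; bars are 95% intervals and the vertical line is 0. All 9 intervals include 0, and they are widest for BDG2 (-1.68 to 1.57) and KCS12 (-2.06 to 0.52).

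xpf-3 at the low dose was set against WT at the high dose, a 10-fold larger exposure. The UV-B responses behind both groups were known when the genes were chosen, so this comparison is not independent of that choice. None of the 9 genes was called by edgeR, none had an unadjusted p under 0.05, and DESeq2 called 0, where 25.4% of all genes tested were called. The log2 fold changes lay between -0.77 ± 0.62 (KCS12) and 0.26 ± 0.13 (KCS10). For BDG1 the 95% interval was -0.15 to 0.35, for CER1 -0.47 to 0.08 and for KCS2 -0.28 to 0.67, and a p that misses the threshold does not show that the levels are equal. KCS10 was called higher without WT high-dose library 1 (0.45, edgeR adjusted p = 0.0236). KCS6 was called lower when the 2 groups were fitted alone (-0.40, edgeR adjusted p = 0.0320).

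Other genes of the pathway were followed in a list of 59 genes (22 of elongation, 7 of wax, 12 of cutin, 6 of export and 12 regulators), of which 45 passed the filter. The list was chosen with earlier results of these data known. Its UV-B responses are therefore a description, and nothing is read from their calls and p-values here or below. At the low dose 35 of the 45 fell and 6 rose in xpf-3, 11 fell and 1 rose in uvr8-6, and 16 fell and 3 rose in WT. At the high dose 34 fell and 6 rose in xpf-3, 29 fell and 5 rose in uvr8-6, and 33 fell and 4 rose in WT, by edgeR's adjusted p. The shares of all genes tested that were called lower were 33.9%, 2.88% and 12.7% at the low dose and 35.5%, 25.4% and 31.5% after the high dose, in the order xpf-3, uvr8-6 and WT. The shares called higher were 33.4%, 2.63% and 12.9% at the low dose and 37.8%, 32.2% and 33% after the high dose in that order. The medians of the 45 were -1.16, -0.30 and -0.32 at the low dose and -1.25, -0.65 and -1.21 at the high dose in the same order. Over all genes tested the medians lay between -0.01 and 0.09.

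Single libraries moved 2 of these counts. The 12 calls in uvr8-6 at the low dose were 3 without uvr8-6 dark library 3 or low-dose library 2, 6 without dark library 1 and 7 without low-dose library 1. The 19 calls in WT at the low dose were 10 without WT dark library 2, 12 without dark library 3, 11 without low-dose library 1 and 9 without low-dose library 2.

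Among the elongation genes KCS3, KCS20 and KCS9, further condensing enzymes, fell most clearly in xpf-3 at the low dose. KCS3 had 25.5, 21.0 and 21.3 CPM in xpf-3 at the low dose, against 295, 268 and 316 CPM in the dark (-3.70 ± 0.20, edgeR adjusted p = 1.31e-12). KCS20 changed by -2.33 ± 0.15 and KCS9 by -2.69 ± 0.19 there. In WT at the high dose KCS3 changed by -3.40 ± 0.20, KCS20 by -2.40 ± 0.15 and KCR1, the ketoacyl reductase of the elongase, by -1.26 ± 0.11. KCS17 rose instead, by 3.07 ± 0.45 in WT at the low dose (edgeR adjusted p = 2.64e-05), where it had 2.63, 3.00 and 3.41 CPM, against 0.335, 0.252 and 0.442 CPM in the dark.

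Of the wax genes, WSD1, a wax ester synthase, had 0.106, 0.854 and 0.888 CPM in xpf-3 at the low dose, against 25.8, 36.7 and 38.2 CPM in the dark (-5.75 ± 0.64, edgeR adjusted p = 9.09e-08). CER4, the reductase that makes primary alcohols, fell by 3.61 ± 0.33 and CER3, which works with CER1 in alkane synthesis, by 2.15 ± 0.16 on the log2 scale in the same comparison. CER3 had 78.5, 73.5 and 73.3 CPM in xpf-3 at the low dose, against 331, 322 and 349 CPM in the dark. LACS1 rose at both doses in xpf-3 (0.75 and 0.95).

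Of the cutin genes, CYP86A2 (ATT1), a fatty acid omega-hydroxylase, had 23.8, 30.0 and 23.7 CPM in xpf-3 at the low dose, against 451, 450 and 513 CPM in the dark (-4.19 ± 0.34, edgeR adjusted p = 9.61e-10). It had 25.5, 14.9 and 17.3 CPM in WT at the high dose, against 274, 369 and 356 CPM in the dark (-4.11 ± 0.34). CYP86A4, of the same family, fell by 2.59 ± 0.20 and the acyltransferase GPAT8 by 1.94 ± 0.17 on the log2 scale in xpf-3 at the low dose. DCR, an acyltransferase of cutin, rose in xpf-3 at the low dose (0.71).

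The transporters and surface proteins that carry cuticle lipids out of the cell fell in 5 of 6 cases in 4 comparisons with dark. These were xpf-3 at both doses, and WT and uvr8-6 at the high dose. Over all genes tested 33.9% were called lower in xpf-3 at the low dose. At the high dose 35.5% were in xpf-3, 25.4% in uvr8-6 and 31.5% in WT. ABCG12 (CER5) had 102, 87.1 and 89.6 CPM in xpf-3 at the low dose, against 558, 540 and 574 CPM in the dark (-2.58 ± 0.18, edgeR adjusted p = 3.87e-11). LTPG2, a lipid transfer protein, changed by -2.11 ± 0.16 and ABCG11, a half-transporter, by -1.58 ± 0.13 there. ABCG13, an exporter known from flowers, rose in xpf-3 at the low dose, with 3, 6 and 4 counts (0.318, 0.732 and 0.395 CPM), against 0 counts in each dark library.

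Among the regulators, MYB30, MYB94 and MYB96 activate very-long-chain fatty acid or wax genes. MYB30 had 49.8, 44.4 and 47.9 CPM in xpf-3 at the low dose, against 194, 189 and 209 CPM in the dark (-2.06 ± 0.16, edgeR adjusted p = 2.54e-10). MYB94 changed by -1.43 ± 0.20 there and by -1.67 ± 0.21 in WT at the high dose. DEWAX, a repressor of wax genes, also fell, by 1.99 in xpf-3 at the low dose and by 2.17 in WT at the high dose on the log2 scale. CER7, an exosome subunit that raises CER3 transcript in stems, rose by 1.14 ± 0.14 in xpf-3 at the low dose and by 1.03 ± 0.14 in WT at the high dose. SHN1, SHN2, SHN3 and MYB106 did not pass the filter.

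The 45 genes, from lists also chosen with earlier results of these data known, were set against the same differences between genotypes. In xpf-3 minus WT at the low dose 31 were lower and 1 (CER7, 0.64) higher, where 17.8% and 11.8% of all genes tested were, with the smallest p for KCS3 (-2.76 ± 0.26, edgeR adjusted p = 8.63e-07), KCS9 (-2.14 ± 0.25) and CYP86A4 (-2.18 ± 0.28). After the high dose 1 of 45 was called, KCS4 at -0.68 ± 0.18 (edgeR adjusted p = 0.0221), where 4.13% of all genes tested were called lower, and with 1 library left out the count was 0 to 2. It was 0 without WT dark library 1 or WT high-dose library 2, and 2 without WT dark library 2 or 3, WT high-dose library 1 or 3, or xpf-3 high-dose library 1. In uvr8-6 minus WT at the low dose none was called by edgeR, where 0.788% of all genes tested were. Of the 45, 2 had an unadjusted p under 0.05 by edgeR, where 1629 of all 19794 genes tested did, and DESeq2 called 0. With the high dose 18 were higher and 1 (KCS17, -1.98) lower, where 4.48% and 3.73% of all genes tested were, with the smallest p for KCS20 (1.40 ± 0.20, edgeR adjusted p = 0.000241), KCS3 (1.62 ± 0.26, 0.00069) and LTPG2 (1.27 ± 0.22, 0.00109). The 19 calls were 12 without WT dark library 2, WT high-dose library 2 or uvr8-6 high-dose library 1.

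Without UV-B none of the 45 was called in xpf-3 against WT by edgeR, where 0.167% of all genes tested were. Of the 45, 23 had an unadjusted p under 0.05 by edgeR, where 3307 of all 19794 genes tested did, and DESeq2 called 2. In uvr8-6 against WT in the dark 19 were lower and 4 higher, where 17.2% of all genes tested were called lower and 14.2% higher. The count of 23 was 12 without WT dark library 2, 15 without WT dark library 3 and 14 without uvr8-6 dark library 2. WSD1 (-2.57 ± 0.47), ABCG12 (-1.14 ± 0.17) and CYP86A2 (-1.58 ± 0.30) were among the lower ones. In xpf-3 at the low dose against WT at the high dose 11 of the 45 were higher and 2 lower, where 11.3% and 14.1% of all genes tested were. GPAT8 (1.11 ± 0.17) and KCS19 (0.82 ± 0.13) were higher, and ACC1, the acetyl-CoA carboxylase that supplies malonyl-CoA, was lower (-0.59 ± 0.13).

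**Figure D5:**
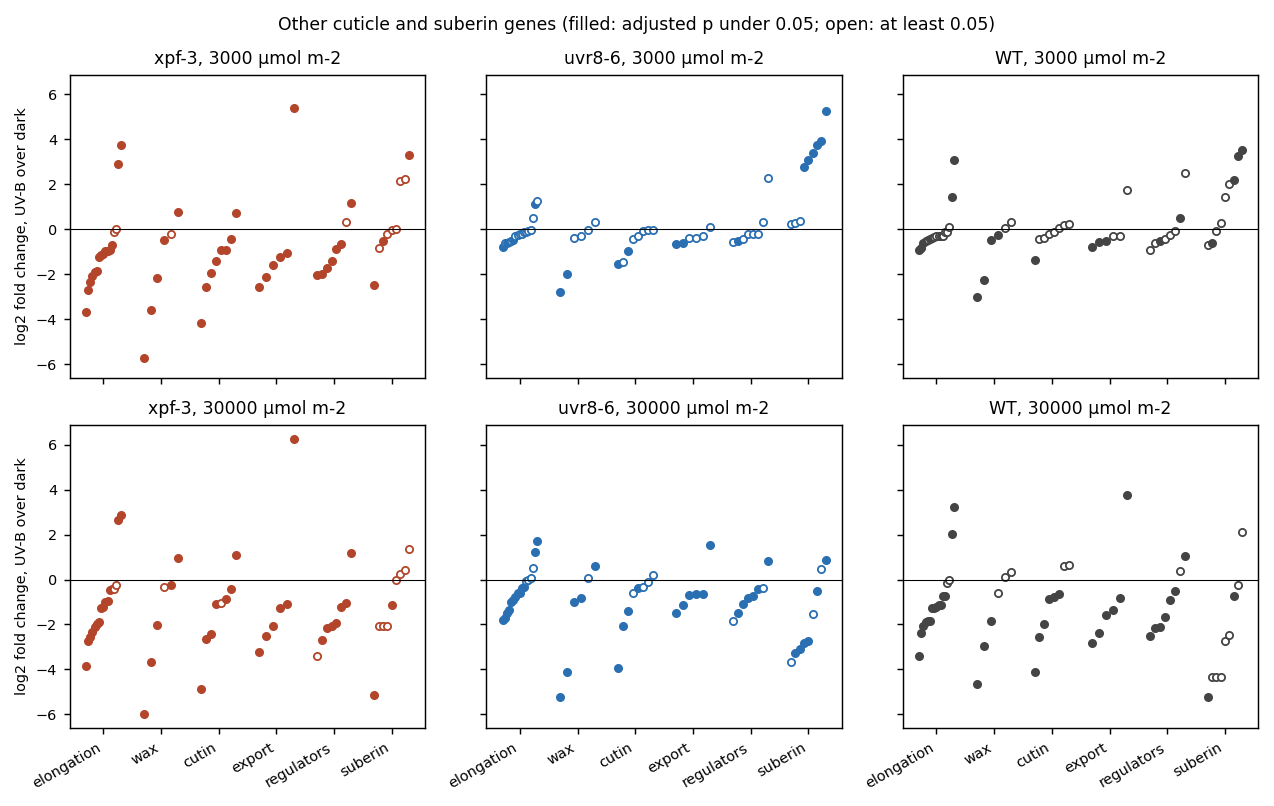
Log2 fold change, UV-B over dark, of each tested gene of 5 cuticle lists and a suberin list in xpf-3, uvr8-6 and WT at 3000 µmol m-2 (top) and 30000 µmol m-2 (bottom); filled points have an edgeR adjusted p under 0.05. Most cuticle genes lie below 0, with CYP86A2 at -4.19 in xpf-3 at the low dose, while 6 suberin genes rise in uvr8-6 at the low dose.

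Across the 27 libraries the levels of the genes moved together to unequal degrees. Correlations of log2 CPM are given as a description only, because the points share treatments and sequencing experiment. KCS1 and BDG2 had r = 0.978, KCS10 and BDG1 had r = 0.975, and KCS1 and KCS2 had r = 0.974. The median correlation of a gene with the other 8 was 0.953 for KCS1, 0.923 for BDG2, 0.729 for CER1 and 0.439 for LACS2, whose weakest was with KCS6 (r = 0.109). The gene outside the set most alike to KCS10 was AT1G71020 (r = 0.983), that to BDG2 was CYP72C1 (r = 0.990), and that to KCS6 was VAMP711 (r = 0.987). For KCS1 it was AT5G16590 (r = 0.993), for KCS12 AT1G11740 (r = 0.986), for BDG1 AT2G04570 (r = 0.987) and for KCS2 AT3G49220 (r = 0.977). LACS2 and CER1 had no gene above 0.9, with AT1G65180 (r = 0.886) and RD22 (r = 0.893) the most alike.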

How the data were processed

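Illumina TruSeq stranded RNA libraries of hypocotyls were sequenced in 27 samples, 3 in each of 9 groups. The authors deposited raw counts per gene, and the submitters' processing notes name FastQC, Trimmomatic, HISAT2 and DESeq2 without versions. No source used here gives the counter, its strand setting, the genome build or the annotation, so reads of a gene and of an overlapping antisense gene may not have been told apart. The authors also deposited a normalized signal table, described in their note as TMM normalization via Deseq with gene names from BIOMART, whose values equal raw counts over a library factor to within 4.9e-10, beside the authors' group means and standard errors. It served as a check, and 0 columns of values were left unmapped.

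From the counts, CPM were computed with TMM-scaled library sizes in edgeR 4.0.16 (limma 3.58.1, R 4.3.3). The filterByExpr filter kept 19794 of 32832 loci, of which 26893 had a count. A quasi-likelihood model with 1 mean per group (18 residual degrees of freedom) was fitted to all 27 libraries, and p-values were adjusted by Benjamini-Hochberg over all genes tested, with calls at 0.05. Differences of responses are interaction contrasts. Tests of the 10 genes are given for genotypes in the dark, for the differences of responses and for xpf-3 at the low dose against WT at the high dose. Their UV-B responses are given as a description, with counts of calls from the same fit from which nothing is read. The members and lists were chosen with earlier results of these data known. The genes named are the 10 genes, the mutated genes, up to 3 called genes with the smallest p per list and comparison, and the gene most correlated with each of the 10 over log2 CPM with a prior count of 2. KCS4, KCS9, KCS17, CYP86A2, CER3, LACS1, DCR, ABCG13, MYB94, DEWAX, CER7, GPAT8 and WSD1 are also named outside comparisons in which that rule picks them, chosen after their values were seen. Replicates were not duplicates (chi-square per degree of freedom 3.57 to 28.6). The fits were also run on counts simulated from their own model with few genes changed. That run cannot test them for data in which most genes change, as in xpf-3 here.

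Alternatives were DESeq2 1.42.0, DESeq2 size factors, no filter on low counts, the compared groups alone, a replicate block and each library left out in turn. Deviations of same-numbered libraries from their group means correlated above 0.1 in all 3 pairs for uvr8-6 at the low dose (lowest 0.177) and the high dose (0.156) against dark, for uvr8-6 high against low dose (0.215) and for WT at the low dose against dark (0.133). That pairing comes from the data and not from the labels. Promoters are from RefSeq TAIR10.1, read by locus.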

Additional observations from a re-analysis of the deposited data

Results flagged for a closer look

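The 8 differences below passed the threshold of the test of the difference between xpf-3 and WT in the response to the low dose, each given as xpf-3 minus WT on the log2 scale. The xpf-3 falls in them were known when the genes were chosen, so the test is not independent of that choice. They were -4.42 for KCS12, -4.35 for BDG2, -2.74 for KCS1, -1.66 for KCS2, -1.54 for KCS6, -1.32 for KCS10, -1.02 for BDG1 and -0.62 for CER1. The CER1 call was lost with any of 3 single libraries left out and with the compared groups alone.

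The high dose gave 5 differences between uvr8-6 and WT by the same kind of test, each given as uvr8-6 minus WT. They were 1.40 for KCS2, 1.21 for KCS1, 0.92 for KCS10, 0.63 for BDG1 and 0.61 for CER1. The calls for KCS2 and KCS10 held with each library left out in turn, whereas those for KCS1, BDG1 and CER1 were lost in 6, 5 and 10 such cases, and also without the filter on low counts and with the compared groups alone. The UV-B responses behind these differences were known when the genes were chosen, so this test too is not independent of that choice. The uvr8-6 libraries come from a later sequencing experiment, and the experiment and the genotype cannot be told apart.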

How the results depend on the processing

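Of 313 tested values of single genes under an alternative other than a left-out library, 293 kept their direction and side of the threshold, and of 594 with a library left out 522 did. With the compared groups alone, calls among the 9 genes were 2 in uvr8-6 at the low dose (4 in the whole fit), 2 in uvr8-6 against WT in the dark (5), 2 for uvr8-6 minus WT at the high dose (5) and 1 for xpf-3 low against WT high dose (0). Among the wider genes they were 10 in WT at the low dose (19), 13 in uvr8-6 against WT in the dark (23) and 0 for xpf-3 minus WT at the high dose (1). Without the filter the 9 genes gave 8 calls for uvr8-6 high against low dose (5) and 2 for uvr8-6 minus WT at the high dose. DESeq2 called 2 wider genes in xpf-3 against WT in the dark (0). For xpf-3 minus WT at the high dose it called 3, its size factors 2 and the replicate block 2 (1). The replicate block moved no other count of calls by over 1.5 times.

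With 1 library left out, calls among the 9 genes were 2 to 4 in uvr8-6 at the low dose, 3 to 5 in uvr8-6 against WT in the dark, 0 to 1 for xpf-3 minus WT and 2 to 6 for uvr8-6 minus WT at the high dose, and 0 to 1 for xpf-3 low against WT high dose. Calls among the wider genes were 3 to 14 in uvr8-6 and 9 to 27 in WT at the low dose, 5 to 10 for xpf-3 high against low dose and 12 to 27 in uvr8-6 against WT in the dark. They were 0 to 2 for xpf-3 minus WT and 12 to 21 for uvr8-6 minus WT at the high dose.

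Values near 0 changed sign. In xpf-3 against WT in the dark, KCS2 (0.08) ranged over -0.019 to 0.14, and was -0.000874 with groups alone, and LACS2 (0.10) over -0.057 to 0.22. In uvr8-6 against WT in the dark KCS12 (-0.18) ranged over -0.32 to 0.038. For xpf-3 minus WT at the high dose KCS2 ranged over -0.44 to 0.16 and KCS10 over -0.23 to 0.047. For uvr8-6 minus WT at the low dose the ranges were -0.037 to 0.44 (KCS1), -0.13 to 0.42 (KCS6), -0.12 to 0.14 (KCS10), -0.085 to 0.11 (BDG1), -0.72 to 0.12 (BDG2) and -0.0065 to 0.19 (LACS2). KCS10 was 0.00349 with groups alone and BDG1 -0.049 without the filter. At the high dose KCS6 (0.02) ranged over -0.19 to 0.36 and was -0.044 with DESeq2, -0.044 with its size factors, -0.11 without the filter and -0.00821 with groups alone, and BDG2 ranged over -0.64 to 0.23. For xpf-3 low against WT high dose BDG2 ranged over -0.40 to 0.31. The cause of these changes was not tested. Depth limits KCS12, BDG2 and BDG3, with under 20 counts in each library of some groups.

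Without the filter the share of calls that were higher was 36.4% for xpf-3 and 41% for uvr8-6 high against low dose (53.8% and 54.6% with it), 31.6% for xpf-3 against WT in the dark (63.6%, and 77.6% with DESeq2) and 21.7% for uvr8-6 minus WT at the low dose (32.7%).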

Other observations

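Suberin is the related polyester of roots and wounds, made by its own acyltransferases, hydroxylases and reductases, and 7 of its 10 listed genes averaged at most 1.04 CPM in each genotype in the dark. The exceptions were FAR1, ASFT and ABCG20. Of the 10, 9 were tested, and this list too was chosen with earlier results of these data known. In uvr8-6 at the low dose 6 rose and none fell by edgeR's adjusted p, where 2.63% and 2.88% of all genes tested did. In uvr8-6 at the high dose 1 rose and 5 fell against dark (median -2.74), where 32.2% and 25.4% of all genes tested did. GPAT5, an acyltransferase of suberin, had 3.22, 3.10 and 3.17 CPM in uvr8-6 at the low dose, against 0.123, 0 and 0.451 CPM in the dark (log2 fold change 3.94 ± 0.65, edgeR adjusted p = 0.000598). FAR5, a fatty acyl reductase, had 2.35, 2.58 and 2.44 CPM there, against 0.432, 0.0719 and 0.322 CPM in the dark (3.07 ± 0.49, edgeR adjusted p = 0.000398). In uvr8-6 at the high dose it had 0, 0.077 and 0 CPM. In WT at the low dose 3 rose and 1 fell, where 12.9% and 12.7% of all genes tested did, with FAR5 at 0.659, 0.882 and 0.987 CPM, against 0, 0 and 0.177 CPM in the dark. The difference of the FAR5 responses, uvr8-6 minus WT, was -0.46 ± 0.86 on the log2 scale (edgeR adjusted p = 0.995).

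ASFT, which adds ferulate to suberin, had 0.386, 1.29 and 1.04 CPM in WT at the high dose, against 32.9, 29.0 and 37.8 CPM in the dark (log2 fold change -5.21 ± 0.32, edgeR adjusted p = 5.12e-12). In xpf-3 it fell by 2.49 at the low and by 5.12 at the high dose on the log2 scale. Markers of the endodermis, where suberin is also laid down, summed to 42.3 to 61.8 CPM in WT at the high dose, against 831 to 1169 CPM in the dark, and their part in these values was not tested.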
